A study of Arabidopsis thaliana with 4 samples.

Results

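Inorganic pyrophosphate and small phosphate esters are stores from which a plant cell can recover phosphate. The 9 genes described here encode Arabidopsis thaliana enzymes that split these compounds: the phosphatases of the haloacid dehalogenase (HAD) type PEPC1 (AT1G17710) and PPsPase1 (AT1G73010), the 6 soluble inorganic pyrophosphatases PPa1 to PPa6, and the vacuolar proton pyrophosphatase AVP1 (AT1G15690). They were taken by gene identifier from the 27655 genes of the deposited table, with earlier results of these data known, and all 9 were found. The table covers Col-0 roots grown for 8 days in medium with 625 µM phosphate (plus_Pi, 2 libraries) or 5 µM phosphate (low_Pi, 2 libraries), in a study on cis-zeatin in the root response to phosphate starvation. Both groups are wild type. The table's own name describes dark-grown roots; the labels are silent on light. The labels do not say whether libraries of a group came from separate cultures or how many plants were pooled.

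Pyrophosphate is released whenever nucleotides, amino acids and sugars are activated for synthesis, and its removal keeps those reactions running forward. Soluble pyrophosphatases split it to phosphate and lose the energy as heat, whereas AVP1 uses it to pump protons into the vacuole and is best known in Arabidopsis for clearing pyrophosphate in germinating seedlings. The HAD-type phosphatases form a separate protein family with an aspartate in the active site. PEPC1 here is the phosphoethanolamine/phosphocholine phosphatase of that name, not phosphoenolpyruvate carboxylase, and its substrates are head groups of membrane phospholipids. PPsPase1 was characterised as a phosphatase acting on pyrophosphate. When phosphate is scarce, the transcription factor PHR1 activates many genes through a promoter element called P1BS, written GNATATNC.

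P1BS matches are shown first because the 5 genes that were higher at low phosphate include 3 with matches within 1000 bases before the gene start and 2 with none there. The motif GNATATNC reads as the same motif on both strands, so each match counts once, and no other motif was searched. Sequences are from the RefSeq TAIR10.1 genome, each on the strand of its gene, 5′ to 3′, with P1BS matches in capitals. The genome build behind the deposited values is not given in the sources used here. The 250 bases before the annotated start of PEPC1 (chr1:6092028-6092277, minus strand), PPsPase1 (chr1:27466349-27466598, minus strand) and PPa4 (chr3:19880254-19880503, plus strand) were as follows.
PEPC1: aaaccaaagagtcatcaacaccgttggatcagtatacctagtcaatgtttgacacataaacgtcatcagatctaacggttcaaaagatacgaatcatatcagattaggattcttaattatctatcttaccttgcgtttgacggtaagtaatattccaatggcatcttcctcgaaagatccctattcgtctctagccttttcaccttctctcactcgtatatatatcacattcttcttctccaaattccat
PPsPase1: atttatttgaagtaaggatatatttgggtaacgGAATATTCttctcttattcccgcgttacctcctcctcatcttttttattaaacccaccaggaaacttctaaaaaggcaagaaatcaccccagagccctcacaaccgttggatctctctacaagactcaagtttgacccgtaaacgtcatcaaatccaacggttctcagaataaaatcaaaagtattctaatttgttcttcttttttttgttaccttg
PPa4: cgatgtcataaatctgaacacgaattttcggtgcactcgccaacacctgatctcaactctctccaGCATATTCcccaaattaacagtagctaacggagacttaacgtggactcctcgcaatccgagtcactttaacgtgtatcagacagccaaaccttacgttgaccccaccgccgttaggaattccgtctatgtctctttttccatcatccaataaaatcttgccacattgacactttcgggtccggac
PPsPase1 held a match from 217 to 210 bases before its start and PPa4 a match from 185 to 178 bases before its start, while the other 7 genes had none in these 250 bases. Over 27444 nuclear genes, 5.46% had at least 1 match in a window of that length. The promoters of PEPC1 and PPsPase1 also shared 2 exact runs of at least 11 bases. Only this pair was compared, so how often other promoters share such runs is unknown. The run taaacgtcatca, 12 bases long, began 194 bases before PEPC1 and 78 bases before PPsPase1. The run accgttggatc, 11 bases long, began 231 and 115 bases before them.

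When the search went back 1000 bases, a window added after the first search, 20.3% of the 27444 genes held a match. PEPC1, PPsPase1 and PPa4 held 2 matches each, PPa6 and AVP1 held 1 each, and PPa1, PPa2, PPa3 and PPa5 held none. The share of all genes with at least 2 matches was not calculated, so how common this is remains unknown. The matches of the HAD-type pair and of PPa4 that lie outside the sequences above are given with their surrounding 30 bases, named by the distance of the motif's first base from the gene start.
PEPC1 at 757 bases (chr1:6092766-6092795, minus strand): cttaacccctaGAATATTCtttctgcttac
PEPC1 at 362 bases (chr1:6092371-6092400, minus strand): ataaataggtgGAATATTCtttttttttat
PPsPase1 at 602 bases (chr1:27466932-27466961, minus strand): ctacttaattaGGATATTCttcttattatt
PPa4 at 322 bases (chr3:19880171-19880200, plus strand): aaaataaaaacGAATATTCacttgacagat
A match is a run of letters and was not shown to be bound in these roots. In the map of matches, the genes with 2 matches are not the same set as the genes that were higher at low phosphate, since PPa3 and PPa5 have none within 1000 bases.

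**Figure D1:**
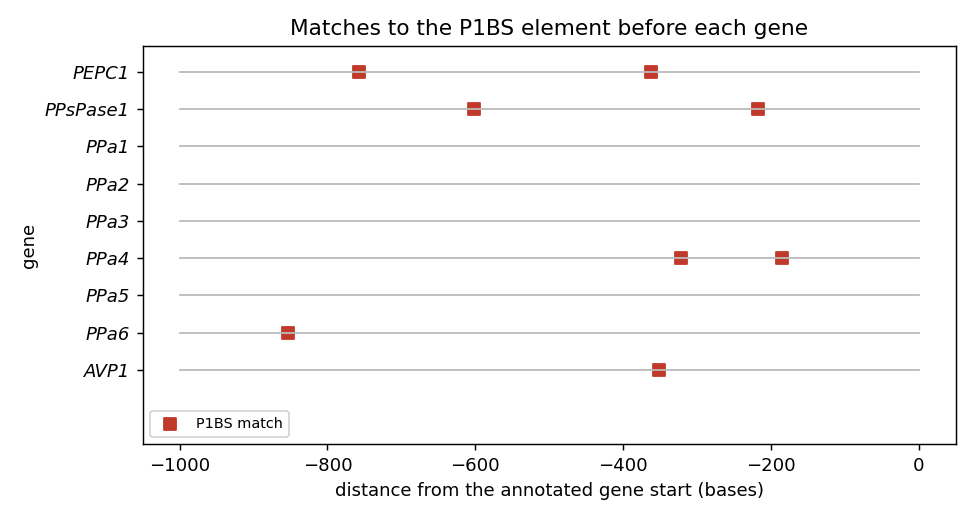
Positions of P1BS matches in the 1000 bases before the annotated start of each of the 9 genes, with distance from the start in bases on the horizontal axis and 1 square per match. PEPC1, PPsPase1 and PPa4 have 2 matches each, PPa6 and AVP1 have 1, and the other 4 genes have none.

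The column totals were 42069421 and 38831704 in low_Pi replicates 1 and 2 and 40584090 and 44635953 in plus_Pi replicates 1 and 2. If the values were read counts, columns within a group would be closer to each other, on average over genes, than counting noise allows. The mean chi-square over genes came to 0.276 within low_Pi and 0.435 within plus_Pi, where independent counts give about 1, and to 240.02 between low_Pi replicate 1 and plus_Pi replicate 1. Values scaled down from larger counts would also give a chi-square below 1, and the normalization is unknown, so whether the 2 libraries of a group are independent is not settled. The labels list them as separate samples. As the cautious choice each group was counted as 1 sample, so no p-value is given and the differences below have no replicate check. They are log2 differences, low_Pi minus plus_Pi, of the deposited normalized counts after adding 41.5, with a call at 2-fold, over the 18729 genes whose mean reached 41.5. The median gene lay at -0.26 on this scale and at 0.00 after median-of-ratios scaling, so differences are also given relative to it. All 8 root markers checked passed the filter, with PYK10 at 460496 to 549062. The 7 green tissue markers summed to 4117 and 3814 in low_Pi and to 6049 and 6533 in plus_Pi, so transcripts known from green tissue were measured in every library.

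Of the 9 genes, 5 were at least 2-fold higher in low_Pi and none was 2-fold lower, where 4.58% of the 18729 genes were 2-fold higher and 4.47% were 2-fold lower. The 5 were both HAD-type phosphatases and the soluble pyrophosphatases PPa3, PPa4 and PPa5. PPa1, PPa2, PPa6 and AVP1 were under 2-fold. The median of the 9 genes was 1.89, against -0.26 over all genes. All 9 passed the filter on low values. The 2 libraries of one group lay on one side of the other group for all 9 genes, 6 higher and 3 lower in low_Pi, but 21.9% of all genes were higher and 62.5% were lower by that same rule, so for genes under 2-fold it says little. In bulk roots, more RNA per cell and more cells of a type cannot be told apart.

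**Figure D2:**
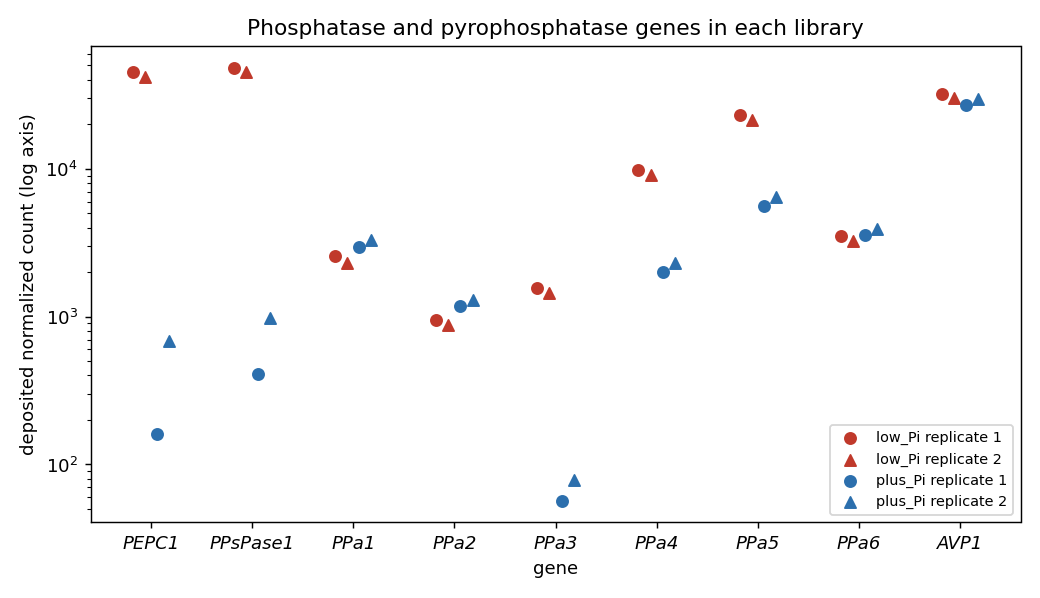
Deposited normalized count of each of the 9 genes in each library on a log axis, with red for low_Pi, blue for plus_Pi, circles for replicate 1 and triangles for replicate 2. PEPC1 and PPsPase1 lie at 41812 to 48320 in the low_Pi libraries and at 162 to 986 in the plus_Pi libraries, while AVP1 lies between 26838 and 32186 in all 4.

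The HAD-type pair had the widest differences of the 9. PEPC1 had 45386 and 41812 in the low_Pi libraries and 162 and 679 in the plus_Pi libraries. Its low_Pi values were thus far above both plus_Pi values, which themselves lay far apart. The ratio of group means was 104, and single library pairs gave ratios from 61.6 to 280.2. The log2 difference was 6.83, the highest of the 18729 genes. PPsPase1 had 48320 and 44760 in low_Pi and 411 and 986 in plus_Pi. Its ratio of means was 66.6, with library pairs from 45.4 to 118, and its log2 difference of 6.09 ranked 7 among all genes.

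In TAIR10.1, PEPC1 lies at chr1:6090405-6092027 and PPsPase1 at chr1:27464528-27466348, both on the minus strand with 4 exons. Both genes encode proteins of similar size, 279 residues for PEPC1 and 295 for PPsPase1, from coding sequences that were 81.4% identical over 828 aligned bases. With gaps counted as differences the identity was 74.9%. No exact window of 50 bases was shared between their transcripts or with the longest annotated transcript of any other gene. Exact copies of that length thus did not limit their values among the transcripts searched. The pair made up 0.223% of both low_Pi column totals, against 0.00141% and 0.00373% in plus_Pi. Per kilobase of coding length, PPsPase1 averaged 52410 and PEPC1 51904 in low_Pi, levels whose libraries overlapped, and these were the highest levels of the 9 genes. In plus_Pi they stood at 787 and 501, again overlapping, below all the other members except PPa3.

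The gene AT4G29530 did not share this difference. It carries the same RefSeq product name as PEPC1 and was named after its values were seen. Its coding sequence was 62.6% identical to PEPC1 and 65.6% identical to PPsPase1 over the aligned bases. By the same measure PEPC1 was 64.4% identical to PPa3 and 76.0% to AVP1, which belong to other families. Such identities therefore do not show how closely AT4G29530 is related to the pair. The values of AT4G29530 were 158 and 156 in low_Pi and 247 and 272 in plus_Pi (log2 -0.60).

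Among the soluble pyrophosphatases, PPa3 (AT2G46860) stood out by its ratio and PPa5 (AT4G01480) by its level. PPa3 lies at chr2:19253670-19255328 on the plus strand, with 8 exons. It had 1566 and 1439 in low_Pi and only 57 and 78 in plus_Pi. The ratio of means was 22.3, with library pairs from 18.4 to 27.5, and the log2 difference of 3.83 ranked 47 among all genes. PPa3 was the least abundant of the 9 genes per kilobase in plus_Pi, at 104, and reached 2308 in low_Pi. Because its plus_Pi values were near the pseudocount, its log2 difference was 2.64 with a pseudocount of 208 and 4.41 with 4.15.

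PPa4 (AT3G53620) and PPa5 differed by similar amounts from a higher starting level. PPa4 lies at chr3:19880504-19883743 and PPa5 at chr4:626069-628070, both on the plus strand with 9 exons. PPa4 had 9775 and 9062 in low_Pi and 1996 and 2294 in plus_Pi, a ratio of means of 4.39 (library pairs 3.95 to 4.90) and a log2 difference of 2.12. PPa5 had 23235 and 21436 against 5608 and 6409, a ratio of 3.72 (3.34 to 4.14) and a log2 difference of 1.89. In both genes the low_Pi libraries were well above the plus_Pi libraries. The libraries of a group lay close together, as they did for most genes, so this is no replicate check. PPa4 ranked 243 and PPa5 ranked 332 of the 18729 genes.

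PPa1 (AT1G01050), PPa2 (AT2G18230) and PPa6 (AT5G09650), the plastid enzyme, were under 2-fold. They lie on the minus strand at chr1:31170-33171, chr2:7931923-7934353 and chr5:2991149-2993213. PPa1 had 2567 and 2318 in low_Pi and 2951 and 3289 in plus_Pi (log2 -0.35). PPa2 had 948 and 871 against 1181 and 1301 (log2 -0.43). PPa6 had 3510 and 3263 against 3549 and 3905 (log2 -0.14). The low_Pi libraries were slightly below the plus_Pi libraries in all 3 genes, but the median gene was as well. Relative to the median gene, PPa1 was at -0.09, PPa2 at -0.18 and PPa6 at 0.12, and PPa6 changed sign with median-of-ratios scaling (0.14) and quantile normalization (0.01). The green tissue markers, whose median was -0.82, moved the same way as PPa6 before scaling; their part in its value was not tested.

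**Figure D3:**
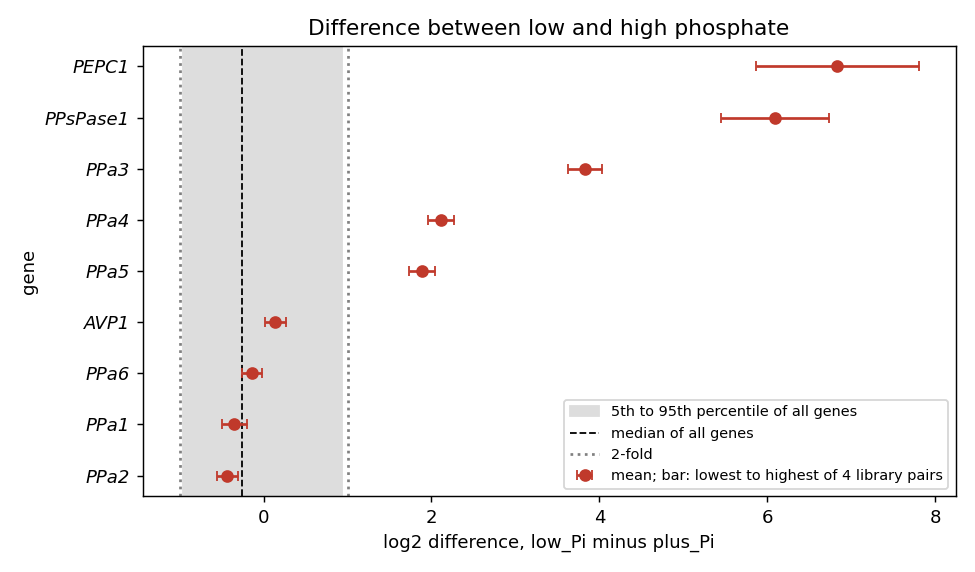
Log2 difference of each gene, low_Pi minus plus_Pi, with bars from the lowest to the highest of the 4 pairs of 1 low_Pi and 1 plus_Pi library. The grey band spans the 5th to 95th percentile of the 18729 genes (-0.96 to 0.94), and PEPC1, PPsPase1, PPa3, PPa4 and PPa5 lie to the right of it.

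Among the soluble enzymes, the genes with the most identical coding sequences did not have the same call. PPa5 was most like PPa1, at 85.8% identity over 639 aligned bases, yet PPa5 was 2-fold higher and PPa1 was not. PPa3 was 80.3% identical to PPa1, 76.5% to PPa5 and 71.8% to PPa4. PPa6 had the lowest identities, at 60.6% to 62.1% with the other 5. PEPC1, of another family, was 60.3% to 64.4% identical to PPa1 to PPa5 by the same measure. AVP1, also of another family, was 76.3% to 80.3% identical to them, so identity over aligned bases does not separate these families. With gaps counted as differences, PPa1 to PPa5 were 69.2% to 84.2% identical to each other, highest for PPa1 with PPa5. By that count PPa6 was 42.2% to 44.8% identical to them, PEPC1 44.9% to 47.0% and AVP1 21.0% to 22.6%. That count also falls where lengths differ, as with PPa6, PEPC1 and AVP1. Neither count therefore shows how closely PPa6 is related to the other 5. Of 945 windows of 50 bases in the PPa1 transcript, 10 occurred in the longest transcript of another gene, and of 1048 in PPa5, 1 did. The partners of PPa1 were PPa5 and AT1G01040, which overlaps it on the opposite strand, and the only partner of PPa5 was PPa1. The other 7 genes shared none, so exact copies of that length could have split little of the counting among the transcripts searched. Shorter or inexact copies were not searched. In the annotation PPa1 overlaps AT1G03997 by 283 bases and AT1G01040 by 58, PPa2 overlaps AT2G18220 by 31, PPa6 overlaps AT5G09640 by 8 and AVP1 overlaps AT1G15700 by 165, all on the opposite strand. AVP1 also overlaps AT1G05183 by 181 bases on the same strand. AT1G03997 and AT1G05183 were not among the 27655 genes with deposited values. The protocols do not mention strand, so the reads of such pairs may not have been separated.

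Summed per kilobase of coding length, the 6 soluble pyrophosphatases reached 62459 and 57625 in low_Pi and 22114 and 24940 in plus_Pi. The summed level was 2.55 times as high in low_Pi, with library pairs from 2.31 to 2.82. Its make-up differed too. PPa5 made up 57.1% of the sum in both low_Pi libraries and 39.0% and 39.5% in plus_Pi, and PPa4 made up 24.0% and 24.2% against 13.9% and 14.1%. PPa1 made up 6.43% and 6.30% in low_Pi against 20.9% and 20.6% in plus_Pi, and PPa6 6.22% and 6.27% against 17.8% and 17.3%. PPa3 was a small part in either group, 3.85% and 3.84% against 0.396% and 0.480%.

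**Figure D4:**
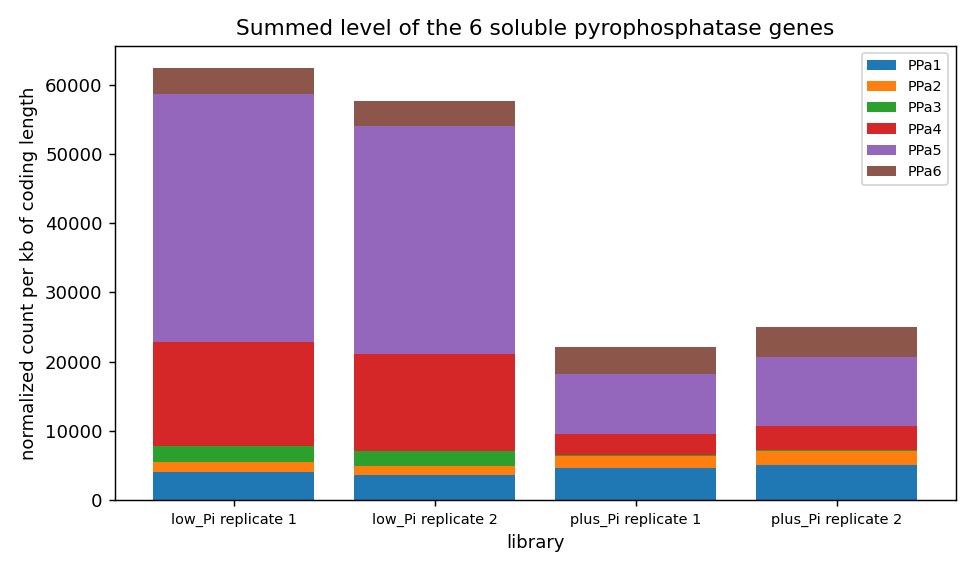
Stacked bars of the normalized count per kilobase of coding length for the 6 soluble pyrophosphatase genes, 1 bar per library. The low_Pi bars reach 62459 and 57625 and the plus_Pi bars 22114 and 24940, and PPa5 is the largest segment in every bar.

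AVP1, the proton-pumping enzyme, was abundant in both groups. Its gene lies at chr1:5398926-5402733 on the plus strand, with 8 exons. It had 32186 and 29953 in low_Pi and 26838 and 29513 in plus_Pi (log2 0.14, library pairs 0.02 to 0.26). The groups lay close together, and AVP1 was the gene with the 119th highest value in each of the 4 libraries. Relative to the median gene it was at 0.40. As a share of the column total it was 0.0765% and 0.0771% in low_Pi and 0.0661% in both plus_Pi libraries. Per kilobase it was the most abundant of the 9 genes in plus_Pi, at 12181, ahead of PPa5 at 9230. In low_Pi it stood at 13433, behind PPsPase1, PEPC1, PPa5 and PPa4. Its place just behind PPa4, at 14468, rests on dividing by coding length. Coding sequence is 651 of 1367 transcript bases in PPa4 and 2313 of 2836 in AVP1. Reads outside it may have been counted too, and no order per transcript length was calculated. Its ratio to the summed soluble enzymes per kilobase was 0.223 and 0.225 in low_Pi against 0.525 and 0.512 in plus_Pi.

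The other vacuolar proton pump is the ATPase, which uses ATP in place of pyrophosphate. Of its 28 subunit genes, 26 passed the filter and none was 2-fold apart. Their median was 0.13, with a range from -0.25 to 0.42, and all 26 lay above the median gene, as AVP1 did. The nearest to it, VHA-e1, was above by only 0.01. The share above the median gene among other genes of similar level was not calculated. The remaining proton pyrophosphatase genes, VHP2;2 (AT1G16780) and AVP2 (AT1G78920), lay at -0.32 and -0.24.

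Enzymes that use or release pyrophosphate gave mixed values. Of 8 genes, 2 were 2-fold higher and 1 was 2-fold lower in low_Pi, with a median of -0.13. In so short a list these counts are 25% and 12.5%, against 4.58% and 4.47% of all genes. UGP3, a plastid UDP-glucose pyrophosphorylase that supplies sulfolipid synthesis and releases pyrophosphate, had 7854 and 7298 in low_Pi and 703 and 851 in plus_Pi (log2 3.22). PFP-beta2, a catalytic subunit of the pyrophosphate-dependent phosphofructokinase, had 6627 and 6151 against 2298 and 2557 (log2 1.38). Its partner genes PFP-alpha1, PFP-alpha2 and PFP-beta1 lay at -0.09, -0.21 and -0.17. PPDK, the pyruvate phosphate dikinase gene, had 155 and 145 against 331 and 388 (log2 -1.06), and was under 2-fold with a pseudocount of 208, with median-of-ratios scaling, with quantile normalization and without plus_Pi replicate 2.

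The substrates of PEPC1, phosphocholine and phosphoethanolamine, arise from lipid breakdown and from synthesis. Of 16 genes of these routes, 15 passed the filter, of which 2 were 2-fold higher and 1 was 2-fold lower (median -0.07). These counts are 13.3% and 6.67% of the list, against 4.58% and 4.47% of all genes. NPC4, a phospholipase C that frees phosphocholine from phosphatidylcholine, had 22079 and 20676 in low_Pi and 438 and 739 in plus_Pi (log2 5.13). NPC6, of the same family, had 492 and 463 against 193 and 217 (log2 1.08), and was under 2-fold with a pseudocount of 208 (0.73). PMT3, of the phosphoethanolamine methyltransferase family, had 212 and 174 against 665 and 738 (log2 -1.67). CCT1, which turns phosphocholine into CDP-choline and releases pyrophosphate, was just under 2-fold, at 0.97, and over 2-fold with median-of-ratios scaling (1.25), quantile normalization (1.09) and a common column total (1.05), and without low_Pi replicate 2 (1.02) or plus_Pi replicate 2 (1.05).

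Other genes annotated as HAD family lay on both sides of 0. Of 74 listed, 58 passed the filter, of which 3 were 2-fold higher, 4 were 2-fold lower and 51 were in between (median -0.13). These counts are 5.17% and 6.90% of the list, near the 4.58% and 4.47% of all genes, so they are no result about the family. AT2G38740, annotated only as a HAD superfamily protein, had 8708 and 8044 in low_Pi and 1412 and 1660 in plus_Pi (log2 2.42). TPPH, a trehalose-6-phosphate phosphatase gene, had 145 and 131 against 1068 and 1180 (log2 -2.70, and -1.94 with a pseudocount of 208). AT3G62040 lay at -1.88 and AT2G38600, annotated as an acid phosphatase, at -1.36, or -0.89 with a pseudocount of 208.

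**Figure D5:**
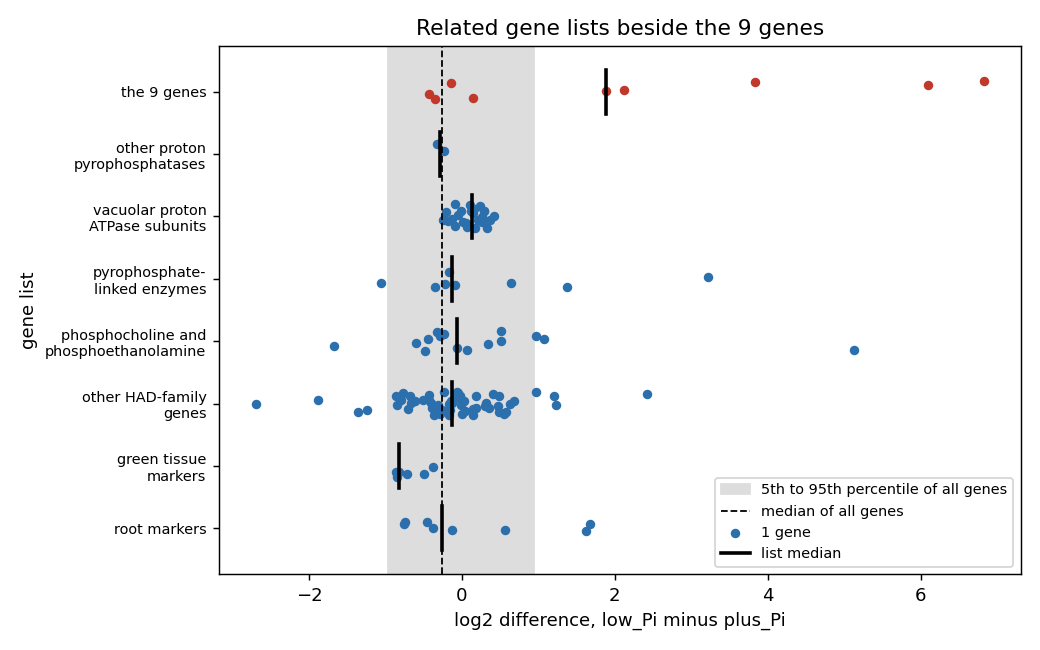
Log2 difference, low_Pi minus plus_Pi, of each gene that passed the filter, by list, with a black bar at the list median and the grey band and dashed line as for all genes. The vacuolar ATPase subunits lie within -0.25 to 0.42, while the 9 genes reach 6.83.

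The genes with the profile most like a member over the 4 libraries were found by Euclidean distance between log2 values centred on each gene's own mean, among the 12904 genes whose mean reached 415. For PEPC1 these were IPS1, a non-coding RNA, SPX3, a gene with an SPX domain, and AT5G20790, at distances of 0.13, 0.53 and 0.62. For PPsPase1 they were MGDC (AT2G11810, also called MGD3), a galactolipid synthase gene, AT5G20790 and AT3G25240, at 0.14, 0.27 and 0.28. PEPC1 and PPsPase1 were 0.87 apart. For AVP1 they were IDH-VI, CCS52A2 and SAM-2, all at distances of 0.01 or less. With 4 libraries in 2 groups, such a distance mainly reflects the size of the group difference.

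Among the 9 genes, plus_Pi replicate 2 stood furthest above replicate 1, as a ratio, in those at least 2-fold higher in low_Pi. The median gene had a ratio of replicate 2 to replicate 1 of 1.10, with the 5th and 95th percentiles of 18719 genes at 1.05 and 1.17. The ratio was 4.19 for PEPC1, 2.40 for PPsPase1 and 1.37 for PPa3. It was 1.15 for PPa4 and 1.14 for PPa5, and 1.10 to 1.11 for PPa1, PPa2, PPa6 and AVP1. The value of replicate 2 beyond 1.10 times replicate 1, given as a percent of the gene's low_Pi mean, was 1.15% for PEPC1, 1.15% for PPsPase1, 1.02% for PPa3, 1.06% for PPa4 and 1.09% for PPa5. For the genes under 2-fold it was 1.85% for PPa1, 0.308% for PPa2, 0.112% for PPa6 and 0.0376% for AVP1. Over the 86 genes at least 8-fold higher in low_Pi the median was 1.14%, with quartiles of 0.960% and 1.30%, and 85 were above 0. Because 1.10 is the median ratio over genes, many genes lie above 0 by construction. Their share was not calculated. The cause was not tested. Without plus_Pi replicate 1 the log2 difference was 5.92 for PEPC1 and 5.50 for PPsPase1, and without plus_Pi replicate 2 it was 7.74 and 6.68.

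Root hair markers were also higher in low_Pi. EXPA7 had 5260 and 5008 in low_Pi and 1493 and 1677 in plus_Pi, and COBL9 had 5022 and 4661 against 1428 and 1649, log2 differences of 1.67 and 1.63. These are a little smaller than the differences of PPa4 and PPa5, and their part in those was not tested. The other 6 root markers lay between -0.76 and 0.56.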

How the data were processed

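Per the labels' protocols, oligo(dT) beads captured polyadenylated RNA for Illumina sequencing. The submitters' processing notes name CASAVA 1.4, FastQC, HISAT2, HTSeq and edgeR, with no role for each. The authors deposited whole numbers called normalized counts, and because the normalization is not given in the sources used here they were treated as a score, with no count model. The second low_Pi column was matched by name to its group only, and its number is the one in its name.

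The pseudocount and the filter were 1 millionth of the mean column total. Alternatives covered the pseudocount, filter, scaling, fold size, omission of each library, and limma 3.58.1 in R 4.3.3 over the 4 columns. The calculations were run on simulated data whose libraries vary independently beyond counting noise, unlike the columns here. That run checked the code and cannot show whether libraries of a group are independent. Names, gene models and sequences came from RefSeq TAIR10.1, whose gene table held 27445 of the 27655 identifiers. Coding lengths and identities used the longest coding sequence per gene and global alignment in Biopython 1.88. Members and lists were chosen with earlier results of these data known. All 9 members were named, with up to 4 genes per list farthest apart beyond 2-fold and the 3 nearest profiles of PEPC1, PPsPase1 and AVP1. Other genes were named after their values were seen.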

Additional observations from a re-analysis of the deposited data

How the results depend on the processing

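Of the 9 genes, 5 were at least 2-fold higher in low_Pi under each scaling, pseudocount, filter and omission of 1 library, as reported, with 4 at a 4-fold rule. PEPC1, PPsPase1 and PPa3 moved by over 1.5-fold over these settings. Over all genes the count at least 2-fold higher, reported as 857, ran from 796 to 943 when any library was omitted, and the count 2-fold lower, reported as 838, from 695 to 1027. Raising the pseudocount to 208 gave 565 higher and 350 lower, and lowering it to 4.15 gave 1310 lower. Median-of-ratios scaling gave 1238 higher and 428 lower, and quantile normalization gave 501 lower. A 1.5-fold rule gave 1643 higher and 3885 lower, and a 4-fold rule 272 and 108. In limma at an adjusted p of 0.05, which takes the columns as replicates and so measures only their spread, 3211 genes were higher and 9740 lower, with 5 and 2 of the 9 genes; the lower ones were PPa1 and PPa2. With the replicate block these counts were 1971 and 5237, with 5 and 0 of the 9. Nothing states that same-numbered columns share a batch, and the correlation of their deviations over genes, which are not independent, was -0.11. HAD-family genes 2-fold higher numbered 3 as reported, 5 with the pseudocount of 4.15 and 1 with 208, and those of phosphocholine and phosphoethanolamine routes 2 as reported, 1 with 208 and 3 with each of the scalings. The read depth behind the normalized counts is unknown, so no counting interval is given.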

Other observations

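Ranked by deposited value within each library, which takes no account of gene length, PEPC1 was 69th in both low_Pi libraries and 16132nd and 11056th in the plus_Pi libraries. PPsPase1 was 61st and 58th in low_Pi. PPa5 was 183rd and 185th in low_Pi and at about place 1452 and 1381 in plus_Pi, and PPa4 was 660th and 656th in low_Pi. These ranks do not change when a column is multiplied by a factor.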
